A study of Homo sapiens with 7 samples.

Results

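The 10 genes described here encode parts of the TGF-beta signalling pathway: the ligands TGFB1 and TGFB2, the receptors TGFBR1, TGFBR2 and TGFBR3, the signal transducers SMAD2, SMAD3 and SMAD4, and the inhibitors SMAD7 and SKIL. They were chosen by name, and their H3K4me1 intervals were counted over the gene body plus 50 kb on either side. Out of 64843 H3K4me1 intervals called in NC cells the windows held 191 (0.295%), and out of 92135 called in KMT2D-KD cells they held 269 (0.292%). An interval here is 1 row of a deposited peak list, that is a stretch of DNA at which the immunoprecipitated fragments exceeded the input. Genes were taken from GENCODE release 44, which holds 20033 protein-coding genes on the hg38 build.

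The cells were SW1990, an established human pancreatic cancer line. NC cells are the negative control and KMT2D-KD cells a knockdown of KMT2D, the methyltransferase that places a single methyl group on lysine 4 of histone H3 (H3K4me1). The labels give shRNA as the treatment of both, and the hairpins against KMT2D and their delivery were not given in the sources used here. The study's methods list siRNAs against KMT2D, and its results describe SW1990 lines with a stable KMT2D knockdown. Which of these gave the cells used for ChIP-seq was not stated. ChIP-seq was carried out in both for H3K4me1, KMT2D and EBF2, a transcription factor, beside 1 input library whose cells were given no condition. With a single library for each target in each condition, no comparison below has a replicate check and none was tested. Every interval printed beside a count, ratio or share is an exact 95% one that covers counting error only, and neighbouring H3K4me1 intervals are not independent of each other.

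TGF-beta ligands bring together the type II receptor (TGFBR2) and the type I receptor (TGFBR1), and TGFBR3, also called betaglycan, presents ligand to them. The type I receptor phosphorylates SMAD2 and SMAD3, which join SMAD4 and enter the nucleus to bind DNA. SMAD7 blocks the receptor, and SKIL (SnoN) is a co-repressor held on SMAD complexes. In the pancreas the pathway restrains the growth of ductal epithelium, and SMAD4 and TGFBR2 are among the genes inactivated in pancreatic cancers. H3K4me1 marks enhancers and the shoulders of promoters, whereas the start sites of active genes carry trimethylation instead.

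The recovered depth of the H3K4me1 libraries was 9.89 fragments per 1000 bases of genome in NC and 9.29 in KMT2D-KD, a ratio of 0.940. The genome-wide mean was therefore 1.85 fragments over any position in NC and 1.64 in KMT2D-KD. A summit with 12 fragments, the median of both lists, carried little more than the least the lists admitted, which was 8 fragments in NC and 7 in KMT2D-KD. In the whole lists, 30.3% of NC and 53.4% of KMT2D-KD intervals had no overlap in the other condition. The number of intervals was 1.42 times higher in KMT2D-KD over the whole list. Of 9 epithelial and ductal marker genes, all 9 had intervals in both lists, from 1 to 47 in NC and from 7 to 51 in KMT2D-KD. The marker lists of cells that a pure line should lack were not empty: 4 acinar genes summed to 19 intervals in NC and 26 in KMT2D-KD, 3 endocrine genes to 3 and 5, 4 fibroblast genes to 44 and 58, 4 leukocyte genes to 8 and 22, and 3 endothelial genes to 15 and 25. Single genes of these lists, PRSS1, PTF1A, NEUROD1 and KDR, had 0 in both. Over all protein-coding genes the median was 3 intervals in NC and 5 in KMT2D-KD. At least 1 interval in the 2 lists together stood at 17338 of 20033 genes, so intervals in a window are common at any gene. The part of other cells in these counts was not tested.

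Sequences under the summits of intervals that carry the results are given first, from the plus strand of hg38, 120 bases each. The first 2 are the strongest KMT2D-KD intervals of TGFB2 and TGFBR2, which were among the strongest of all 10 windows. The next 2 are the strongest intervals of SMAD3 and SMAD2 that had no overlapping NC interval, and the fifth is the only interval within 1 kb of the 5′ end of any of the 10 genes. Here and below the strongest interval is the one with the highest −log10 q-value, which need not have the most fragments. Capitals mark the SMAD element CAGAC or the TEAD motif GGAATG, on either strand.
TGFB2, strongest, chr1:218480073-218480192: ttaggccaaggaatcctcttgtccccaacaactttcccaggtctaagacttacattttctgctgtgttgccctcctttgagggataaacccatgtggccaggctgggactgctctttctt
TGFBR2, strongest, chr3:30626580-30626699: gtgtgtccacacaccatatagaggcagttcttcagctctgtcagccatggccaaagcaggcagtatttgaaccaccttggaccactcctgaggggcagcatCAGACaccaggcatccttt
SMAD3, no NC interval, chr15:67126737-67126856: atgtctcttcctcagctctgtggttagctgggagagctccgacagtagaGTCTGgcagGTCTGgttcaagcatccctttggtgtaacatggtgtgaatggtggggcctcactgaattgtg
SMAD2, no NC interval, chr18:47881751-47881870: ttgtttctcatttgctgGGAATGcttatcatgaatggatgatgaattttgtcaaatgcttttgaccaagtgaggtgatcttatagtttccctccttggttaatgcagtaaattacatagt
TGFBR1, promoter, no NC interval, chr9:99103711-99103830: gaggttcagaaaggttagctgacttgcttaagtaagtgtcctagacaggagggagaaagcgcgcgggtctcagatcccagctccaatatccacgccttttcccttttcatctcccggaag

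H3K4me1 intervals were more numerous in KMT2D-KD cells at 8 of the 10 genes, equal at TGFB2 and TGFBR2 and fewer at none. Among the 12726 protein-coding genes with at least 5 intervals in the 2 lists together, 82.7% had more in KMT2D-KD, 6.95% had equal numbers and 10.3% had fewer. At least 1.5 times as many intervals in KMT2D-KD stood at 7 of the 10 genes, beside 58.3% of all such genes, and at least 1.5 times as many in NC at 0 of 10, beside 3.49%. The shares of the 10 genes were thus near those of all genes. Summed over the windows, the counts of 191 and 269 gave a log2 ratio KMT2D-KD to NC of 0.49 (0.22 to 0.77), and the ratio of 1.41 was close to the 1.42 of the whole list. When the 2 lists were cut to equal numbers of their most significant intervals, the windows held 191 and 201 intervals and only 4 of the 10 genes kept more in KMT2D-KD, while 4 had fewer. The same count over all protein-coding genes was not made.

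Covered length was higher in KMT2D-KD at all 10 genes, beside 91.4% of all genes, and at least 1.5 times higher at 5 of 10, beside 65.2%. It was at least 1.5 times higher in NC at 0 of 10, beside 2.2%. Of 1896 kb of windows, NC intervals covered 102 kb (5.38%) and KMT2D-KD intervals 165 kb (8.68%). Of this length, 71.1 kb lay under intervals of both lists, 31.0 kb under NC intervals alone and 93.5 kb under KMT2D-KD intervals alone. Intervals were also wider, and their median width went from 393 bases to 501. Those of 1000 bases or more numbered 19 and 39, or 9.95% and 14.5% of the intervals of the 10 genes, beside 8.50% and 11.4% of all intervals.

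**Figure D1:**
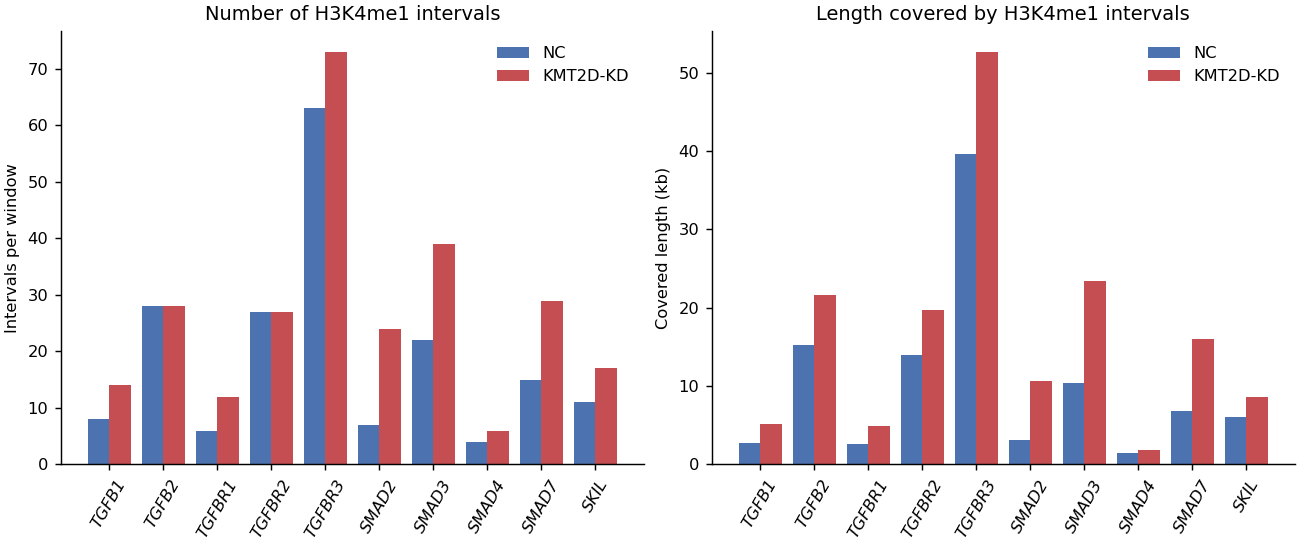
Number of H3K4me1 intervals (left) and length covered by them in kb (right) in the window of each gene, with NC in blue and KMT2D-KD in red, from 1 library each. Numbers of TGFB2 and TGFBR2 were equal (28 and 27 in both conditions), and covered length was higher in KMT2D-KD at every one of the 10 genes.

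The ligand genes differed from each other in density. TGFB1 lies at chr19:41301587-41353922 on the minus strand, in a window with 8 other protein-coding genes, and went from 8 intervals (2.75 kb) to 14 (5.19 kb) between NC and KMT2D-KD. The interval with the highest −log10 q-value in its window, in both lists, was not in TGFB1 but 14.6 to 14.7 kb upstream, in an intron of TMEM91, with 16 fragments at the summit in NC and 19 in KMT2D-KD. By fragments alone, an interval in a TGFB1 intron was higher in KMT2D-KD, with 22 at chr19:41324114-41324977. That interval also overlapped an untranslated region of the neighbouring gene CCDC97. TGFB2 lies at chr1:218345336-218444619 on the plus strand and had 28 intervals in both lists, which covered 15.2 kb and 21.6 kb. The intervals of TGFB2 lay mostly in a cluster in the 5′ part of the gene and in another beyond its 3′ end, in an intron of the long noncoding RNA LINC02869.

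That downstream cluster held the interval with the highest fold enrichment of all 10 windows. It spanned chr1:218479014-218480717 in KMT2D-KD, with 33 fragments at the summit and a fold enrichment of 10.3 over the input, where 2 NC intervals had 10 and 20 fragments and folds of 3.17 and 6.05. Of 28 KMT2D-KD intervals at TGFB2, 6 spanned 2 or more NC intervals, and 1 NC interval spanned 2 or more of KMT2D-KD. Equal numbers at TGFB2 therefore stood beside wider intervals, whose median width was 448 bases for NC against 659 for KMT2D-KD. The strongest NC interval of TGFB2, 115 kb from the 5′ end, went the other way, from 22 fragments in NC to 15 in KMT2D-KD.

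Among the receptor genes, TGFBR3 stood first by number and TGFBR1 last. TGFBR1, the type I receptor at chr9:99104038-99154192 on the plus strand, had 6 NC intervals (2.64 kb) and 12 KMT2D-KD intervals (4.91 kb). Of these, 3 and 9 did not overlap an interval of the other list. The strongest pair at TGFBR1 lay 28 to 29 kb upstream in both conditions, between TGFBR1 and COL15A1, and its 2 intervals moved in opposite directions: 15 fragments in NC and 18 in KMT2D-KD at one, 19 and 12 at the other. TGFBR1 was the only one of the 10 genes with an interval within 1 kb of its 5′ end, at chr9:99103489-99103877 in KMT2D-KD, with 9 fragments and a fold of 3.79. An NC interval with 11 fragments lay slightly farther upstream, 1.24 kb from the 5′ end, and that one had no KMT2D-KD interval over it.

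TGFBR2, the type II receptor at chr3:30606601-30694142 on the plus strand, had 27 intervals in both lists and a covered length of 14.0 kb in NC against 19.7 kb. Its strongest KMT2D-KD interval lay in an intron 20.0 kb from the 5′ end and had 26 fragments, where the 2 NC intervals it spanned had 16 and 15. The summit sequence of this KMT2D-KD interval overlapped the processed pseudogene KLHL25P1, and the part of multiply mapped reads there was not tested. The widest, 5.15 kb from the 5′ end, was 2297 bases long in KMT2D-KD, and the widest in NC was 1646 bases. With equal numbers of top intervals in the whole lists, TGFBR2 kept 27 in NC and 15 in KMT2D-KD.

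TGFBR3 lies at chr1:91680343-91906335 on the minus strand and held 63 NC intervals and 73 of KMT2D-KD. Covered length was 39.6 kb and 52.6 kb, or 12.2% and 16.1% of its window, the highest share of the 10 genes in both lists. Per 100 kb of window this was 19.3 and 22.4 intervals, beside medians of 3.52 and 5.84 over genes with at least 5 intervals. Of those genes, 0.212% had 73 or more intervals in KMT2D-KD. The widest interval of the 10 windows lay in a TGFBR3 intron 62 kb from the 5′ end and measured 2963 bases (NC) and 3564 bases (KMT2D-KD). The strongest NC interval covered coding and untranslated exon sequence and had 25 fragments, against 19 in the KMT2D-KD interval over it. The strongest KMT2D-KD interval, over an intron, had 25 fragments, against 11 in NC. Its summit sequence overlapped RN7SL653P, annotated as a miscellaneous RNA gene, and the part of multiply mapped reads there was not tested.

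Of the SMAD genes that carry the signal, SMAD2 and SMAD3 had more intervals in KMT2D-KD, and SMAD4 had few in either list. The log2 ratio was 0.51 over the whole list, and its median over genes with at least 5 intervals was 0.65. The 95% interval at SMAD3 contained both values, and that at SMAD2 began at 0.52, below the median. The higher numbers were therefore not shown to be particular to these 2 genes. SMAD2, at chr18:47808957-47931146 on the minus strand, had 7 NC intervals and 24 of KMT2D-KD. The log2 ratio was 1.78 (0.52 to 3.24). Covered length there was 3.11 kb and 10.6 kb. A ratio of numbers at least as high was found at 12.2% of genes with at least 5 intervals, so SMAD2 was high in that distribution but not alone. Of the 24 KMT2D-KD intervals, 18 had no overlapping NC interval, and 13 of those lay over 1 kb from any NC interval. They filled the first 50 kb of the gene and its upstream side, while the 122 kb that followed, the 3′ part of SMAD2 and beyond, held no interval of either list. The strongest of them, 49.3 kb into the gene in an intron, had 15 fragments, which was also the highest number at any SMAD2 summit in KMT2D-KD. The highest in NC was 16, so at SMAD2 the lists differed in the number of intervals and not in the height of the tallest.

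SMAD3, at chr15:67063763-67195173 on the plus strand, had 22 NC intervals over 10.4 kb and 39 KMT2D-KD intervals over 23.4 kb, with a log2 ratio of numbers of 0.83 (0.04 to 1.65). A ratio at least as high was found at 40.3% of the genes. KMT2D-KD intervals without an NC counterpart numbered 22 at SMAD3 and included the strongest and the third strongest such interval over all 10 windows. The strongest lay at chr15:67126432-67126994, in an intron 63.0 kb from the 5′ end, with 17 fragments and a fold of 6.83. Its printed sequence holds 2 copies of the SMAD element, 4 bases apart. Of 18 overlapping pairs at SMAD3, 17 were higher in KMT2D-KD after fragments were divided by the genome-wide mean of each library. Some of these had equal or fewer fragments in KMT2D-KD before that scaling. The median log2 difference was 0.11 before it and 0.29 after.

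SMAD4, the partner of both, lies at chr18:51028528-51085045 on the plus strand and had 4 NC intervals over 1.47 kb and 6 KMT2D-KD intervals over 1.88 kb. All 4 NC intervals lay in the gene, beyond its first 40.1 kb, and the strongest, with 11 fragments in NC and 14 in KMT2D-KD, covered its 3′ untranslated region. The first 90.1 kb of the window, from 50 kb upstream to 40 kb into the gene, held no interval in either list, including the promoter. SMAD4 also had the smallest covered share of the 10 windows, 0.942% in NC and 1.20% in KMT2D-KD. It had 2.56 and 3.83 intervals per 100 kb, above the medians of 1.83 and 3.31 over all protein-coding genes and below those of 3.52 and 5.84 over genes with at least 5 intervals.

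The inhibitor SMAD7, at chr18:48919853-48950965 on the minus strand, had 15 NC intervals over 6.79 kb and 29 KMT2D-KD intervals over 16.0 kb, with a log2 ratio of numbers of 0.95 (0.0046 to 1.96). A ratio at least as high was found at 36.3% of the genes. In the gene body all but 1 of 11 NC intervals overlapped a KMT2D-KD interval, in a chain with NC summits between 6433 and 25668 bases downstream of the start. The strongest of the chain in KMT2D-KD, 9.82 kb in, had 19 fragments, against 10 in the NC interval beneath it. Of the 16 KMT2D-KD intervals without an NC counterpart, 11 lay over 1 kb from any NC interval, and the strongest stood 45.7 kb upstream with 15 fragments and a width of 1114 bases.

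SKIL, the co-repressor at chr3:170357342-170396835 on the plus strand, had 11 NC intervals over 6.08 kb and 17 KMT2D-KD intervals over 8.62 kb. It had the most intervals within 5 kb of the 5′ end, 5 in each list, and none lay beyond 9.46 kb into the gene. The longest stretch with no interval in either list was 80.0 kb, from there to the end of the window. The strongest NC interval of SKIL covered a coding exon 3.06 kb from the 5′ end with 16 fragments, and the overlapping KMT2D-KD interval had 15. The strongest in KMT2D-KD stood 27.2 kb upstream, at chr3:170329750-170330453, with 17 fragments and no NC interval over it.

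**Figure D2:**
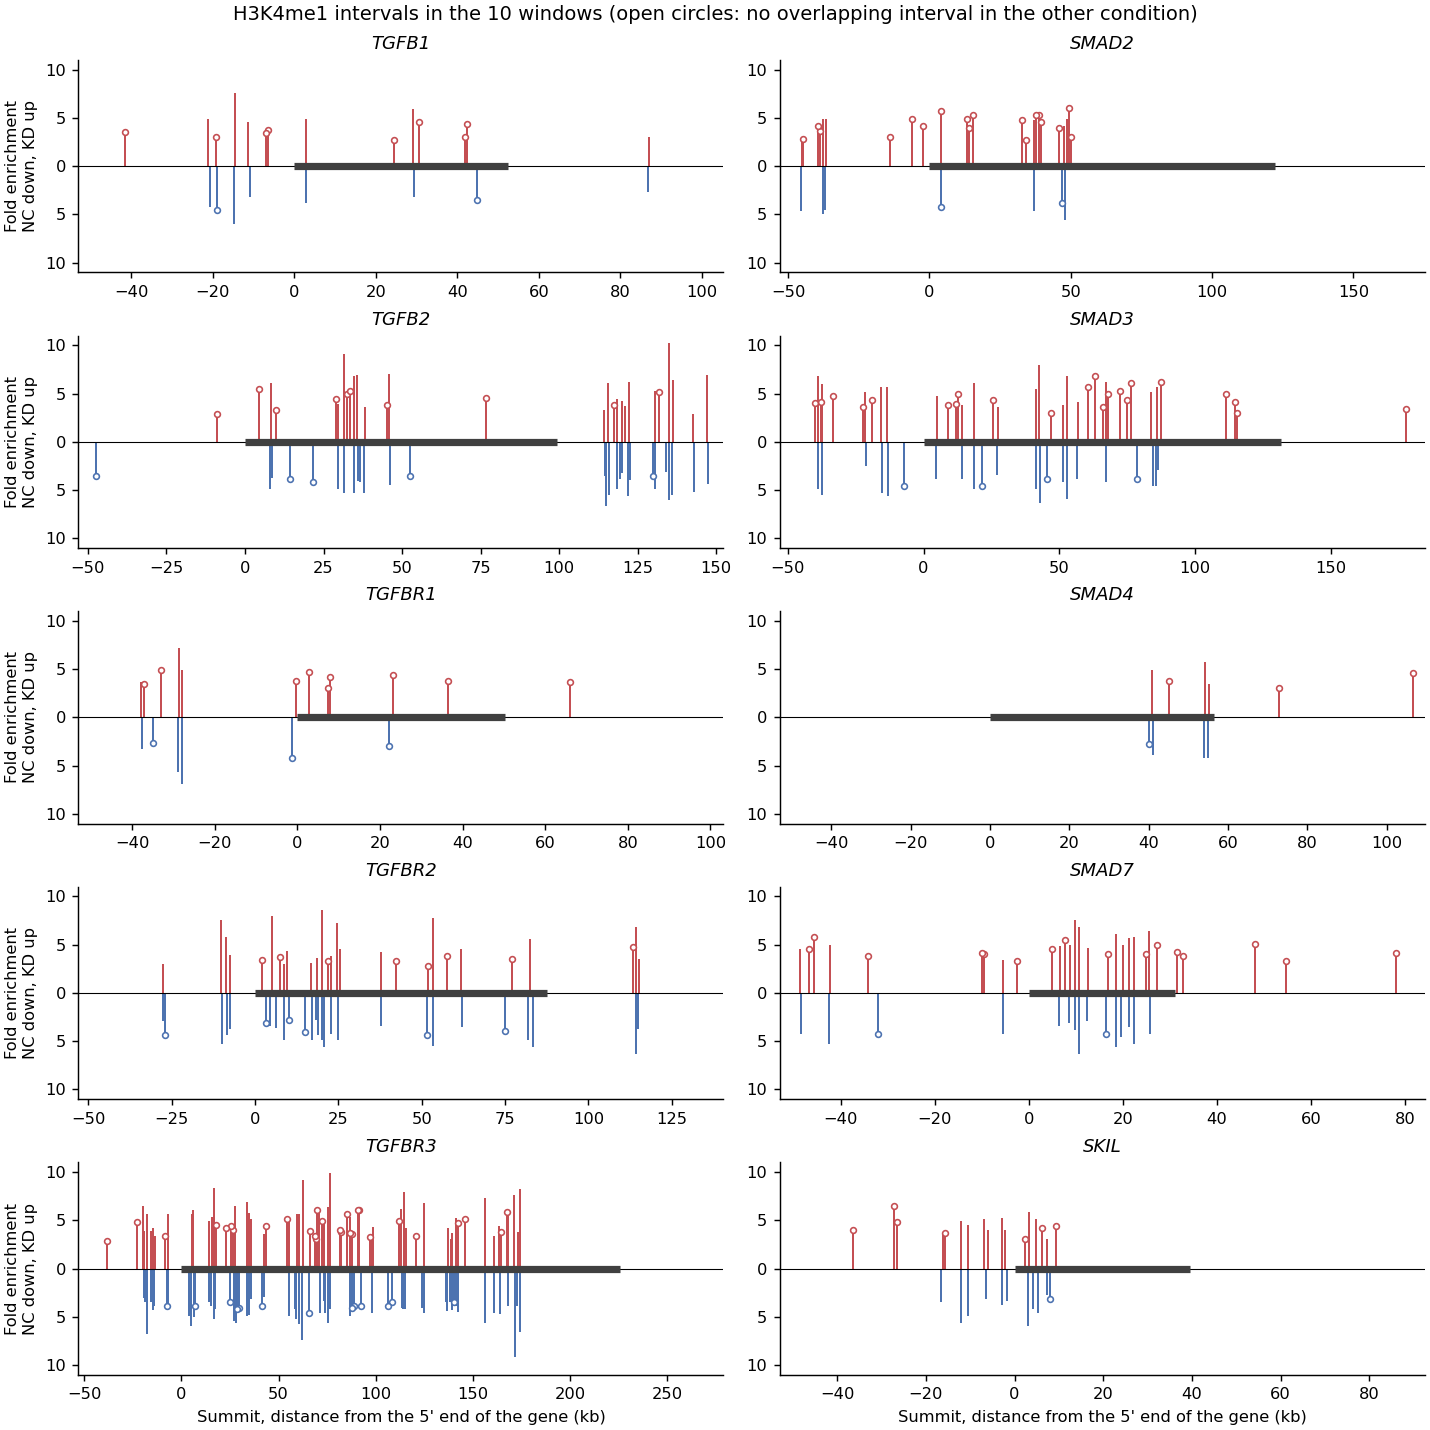
Summits of all H3K4me1 intervals in the 10 windows against distance from the 5′ end of the gene in kb, with fold enrichment over the input drawn upward for KMT2D-KD (red) and downward for NC (blue). The grey bar is the gene and open circles are intervals with no overlap in the other condition (39 in NC, 129 in KMT2D-KD). SMAD4 is empty over 90.1 kb and SMAD2 over 122 kb.

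Overlap between conditions was lopsided. Of the NC intervals of the 10 genes, 39 of 191 had no overlapping KMT2D-KD interval, 20.4% (14.9 to 26.8), beside 30.3% of all NC intervals. Of the KMT2D-KD intervals, 129 of 269 had no overlapping NC interval, 48.0% (41.9 to 54.1), beside 53.4% of all. Per gene the KMT2D-KD share ran from 29.6% at TGFBR2 to 75% at TGFBR1 and SMAD2, and the NC share from 9.09% at SKIL to 50% at TGFBR1. Of the 129 KMT2D-KD intervals, 56 lay within 1 kb of an NC interval and 73 farther away, a split not counted over the whole list. In the windows 3 KMT2D-KD intervals had a p-value weaker than any in the NC list.

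Unshared intervals were the weaker ones. In KMT2D-KD they had a median of 11 fragments and 309 bases, against 14 fragments and 704.5 bases for shared ones, and in NC 11 fragments and 281 bases against 13 and 462.5. Of the intervals with a −log10 q-value of at least 5, 0 of 50 in NC and 27 of 105 in KMT2D-KD had no overlap with any interval of the other list. The same shares over the whole lists were not counted, so these are not shown to be particular to the 10 genes. These 50 and 105 were 26.2% and 39.0% of the intervals of the 10 genes, beside 25.3% and 32.4% of all. Intervals with a −log10 q-value of at least 10 numbered 3 (1.57%) in NC and 21 (7.81%) in KMT2D-KD, beside 2.54% and 7.23% of all, so their shares were near those of the whole lists.

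**Figure D3:**
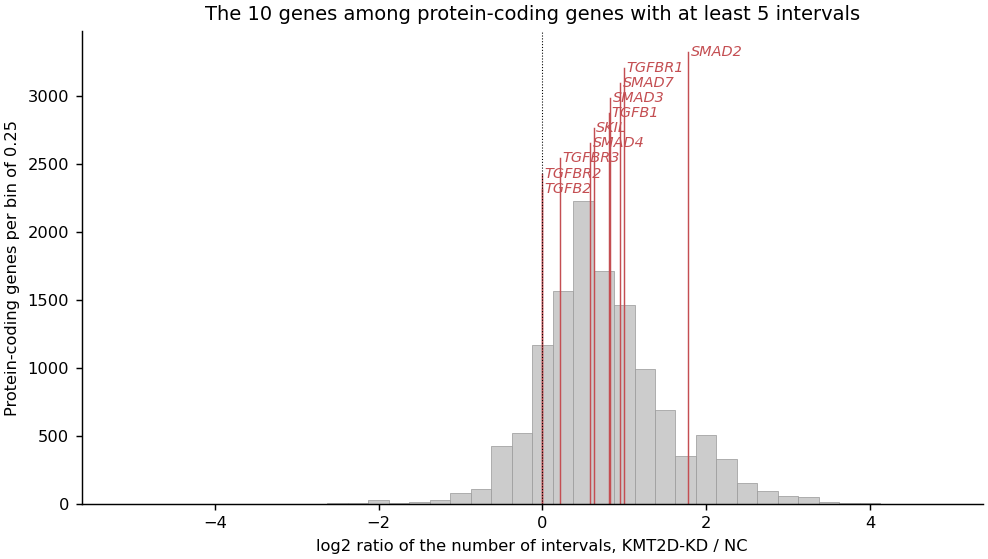
Histogram of the log2 ratio of the number of intervals, KMT2D-KD to NC, over protein-coding genes with at least 5 intervals in the 2 lists together, in bins of 0.25 (the 144 genes with none in NC are left out). Red lines mark the 10 genes, which run from 0 at TGFB2 and TGFBR2 to 1.78 at SMAD2. The median of all these genes was 0.65.

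Where both lists had an interval, signal was compared at the summits as fragments divided by the genome-wide mean of the library. Over the 152 overlapping pairs of the 10 genes, this quantity had medians of 7.03 (NC) and 8.56 (KMT2D-KD), the same medians as over all 45195 pairs of the genome. It was higher in KMT2D-KD in 121 of 152 pairs, 79.6%, beside 75.7% of all pairs, with a median log2 difference of 0.29 beside 0.28. Much of this came from the scaling, which gave pairs with equal fragments a log2 difference of 0.18 and so counted them as higher. Before scaling, the median log2 difference was 0.12 at the 10 genes beside 0.11 over all pairs. Median fragments of the 152 pairs were 13 for NC against 14 for KMT2D-KD. The KMT2D-KD interval was the wider one in 107 pairs, 70.4%, beside 68.5%. By gene, the share of pairs with more scaled fragments in KMT2D-KD was lowest at SMAD2 and SKIL, 60% of 5 and 10 pairs, and highest at SMAD3. Each shared NC interval made 1 pair, so a wide KMT2D-KD interval could stand in several pairs. The pairs with the largest differences were at TGFB2 (log2 1.90, over the interval of 33 fragments) and at TGFBR3 (1.36, over the interval at RN7SL653P). In that TGFB2 pair the 2 summits lay 910 bases apart. The other NC interval under the same KMT2D-KD interval, with its summit 70 bases away, gave 0.90. Pairs were drawn from intervals called in each library separately, and a pair is in the list only if both passed.

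**Figure D4:**
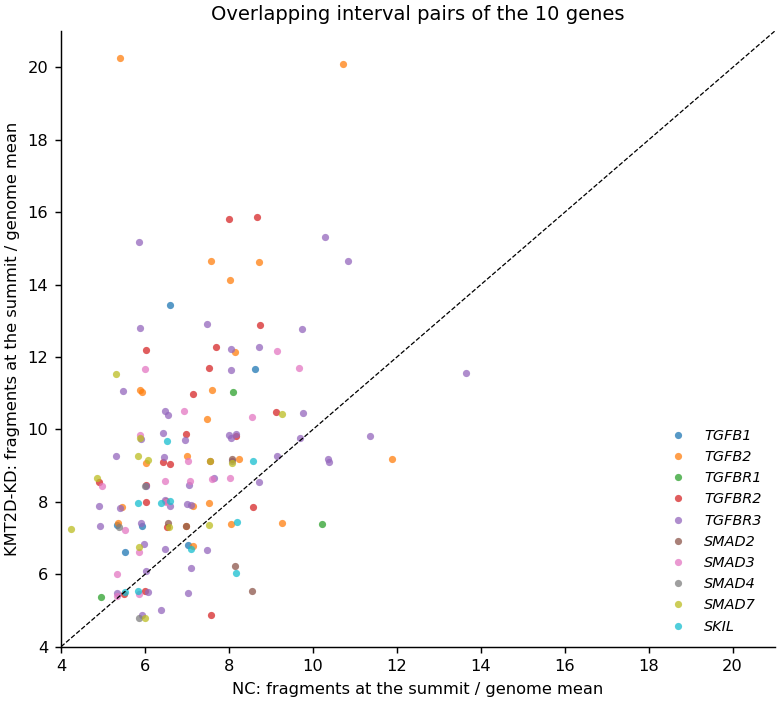
Each point is 1 overlapping pair of H3K4me1 intervals at the 10 genes, with fragments at the summit over the genome-wide mean in NC (x axis) and KMT2D-KD (y axis), moved by up to 0.12 on each axis to separate equal values. The dashed line marks equal values, and 121 of 152 pairs lie above it. Pairs with equal fragments before scaling are among those above the line.

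Intervals at the 5′ ends themselves were rare in both lists, at the 10 genes and over all protein-coding genes. Within 1 kb of the 5′ end, 0 of the 10 genes had an interval in NC and 1, TGFBR1, in KMT2D-KD, beside 6.43% and 11.9% of all protein-coding genes. For 10 genes these counts were near those shares. Within 5 kb the numbers were 7 and 9 of 10, beside 30.2% and 42.9%. Per 100 kb, all 10 windows held more intervals than the median protein-coding gene in both lists. Against the medians of genes with at least 5 intervals, 8 windows in NC and 9 in KMT2D-KD were higher, with SMAD4 lower in both and SMAD2 lower in NC. Counting any annotated transcript start instead of the 5′ end of the gene, 6 genes in NC and 7 in KMT2D-KD had an interval within 1 kb, beside 17.4% and 26.6% of all protein-coding genes. The 10 genes have 4 to 20 such starts each, and over the 11987 protein-coding genes with as many the shares were 21.5% and 33.3%. TGFB1, TGFB2 and SMAD4 had none by that count in either list. In NC 131 of 191 intervals lay in the gene bodies, 42 upstream and 18 downstream, and in KMT2D-KD 176, 67 and 26 of 269.

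The KMT2D and EBF2 lists of the same cells were short and had no interval at these genes. For KMT2D there were 238 NC and 318 KMT2D-KD intervals in the whole genome, and for EBF2 293 and 311. None of the 4 lists had an interval in any of the 10 windows. The share of all protein-coding genes with such an interval was not counted. With so few intervals in the genome, a count of 0 is not a trait of these genes. Taking 3 counts as the limit that a count of 0 allows, rather than the exact interval used elsewhere, the share could be up to 1.26%, 0.943%, 1.02% and 0.965% of each list, in that order. The nearest was an EBF2 interval of NC at 0.162 Mb from the TGFB1 window. At this depth of calling, H3K4me1 at the 10 genes could not be set beside KMT2D or EBF2 occupancy.

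Motifs were counted within 100 bases of each summit, on both strands. The SMAD element CAGAC was found in 29.8% (23.5 to 36.9) of the NC intervals of the 10 genes and in 33.1% (27.5 to 39.1) of the KMT2D-KD ones, beside 32.4% and 33.1% of all intervals. The AP-1 motif TGANTCA was found in 5.24% and 8.55%, beside 8.06% and 7.78%, and the TEAD motif GGAATG in 10.5% and 8.92%, beside 12.4% and 12.1%. The EBF core CCCNNGGG stood in 2.62% and 4.46%, beside 3.74% and 4.33%. For the motifs of forkhead factors (TGTTTAC), of KLF and SP factors (GGGCGG) and of the GATA family (letters AGATAA) too, the share over all intervals lay inside the interval of the share at the 10 genes in both lists. The SMAD palindrome GTCTAGAC was in none of the 191 and 269 intervals and in 0.145% and 0.138% of all. Median GC content was 44% and 46.5%, beside 44% and 46%.

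Words of the Alu repeat differed in share between the lists. Alu is the most common short interspersed repeat of the human genome, with very many near-identical copies, and 3 words of 9 letters from it (TAATCCCAG, CTTTGGGAG and GAGGCTGAG) were counted on both strands, a choice made after the sequences under some summits were seen. At least 1 of them stood within 100 bases of the summit in 18 of 191 NC intervals of the 10 genes, 9.42% (5.68 to 14.5), and in 52 of 269 KMT2D-KD intervals, 19.3% (14.8 to 24.6). Over all intervals the shares were 11.9% and 17.0%. Windows of the same size 2 kb to either side of the summits held a word in 16.0% and 14.7% of cases at the 10 genes, and in 13.8% and 14.4% over all intervals. Over all intervals the NC summits thus had fewer such words than their surroundings and the KMT2D-KD summits more, beyond counting error. At the 10 genes the order was the same, with intervals that overlapped.

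The highest share was in the KMT2D-KD intervals without an NC counterpart. At the 10 genes 31 of 129 of them had a word, 24% (16.9 to 32.3), against 15% (9.53 to 22.0) of the shared ones, and these intervals overlap. Over all intervals the shares were 18.9% and 14.8%, and in NC 11% and 12.4%. TGFBR3 had 20 KMT2D-KD intervals with a word, against 10 in NC, and SKIL had 6 against 3. Among the strongest KMT2D-KD intervals, those of TGFB1 and SKIL had a word in the 120 bases at the summit. Among the strongest without an NC counterpart, those of TGFBR2, TGFBR3, SMAD7 and SKIL did. Without the intervals that had a word, TGFBR3 stood at 53 in both lists, SMAD4 at 4 in both, TGFB2 at 26 and 25 and TGFBR2 at 26 and 24, so that 6 of the 10 genes had more in KMT2D-KD and 2 had fewer. This too was not counted over all protein-coding genes. SMAD2 then had 7 and 21, SMAD3 21 and 35, and SMAD7 15 and 24. The treatment of reads that map to several places was not given in the sources used here, and its part in these counts was not tested.

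**Figure D5:**
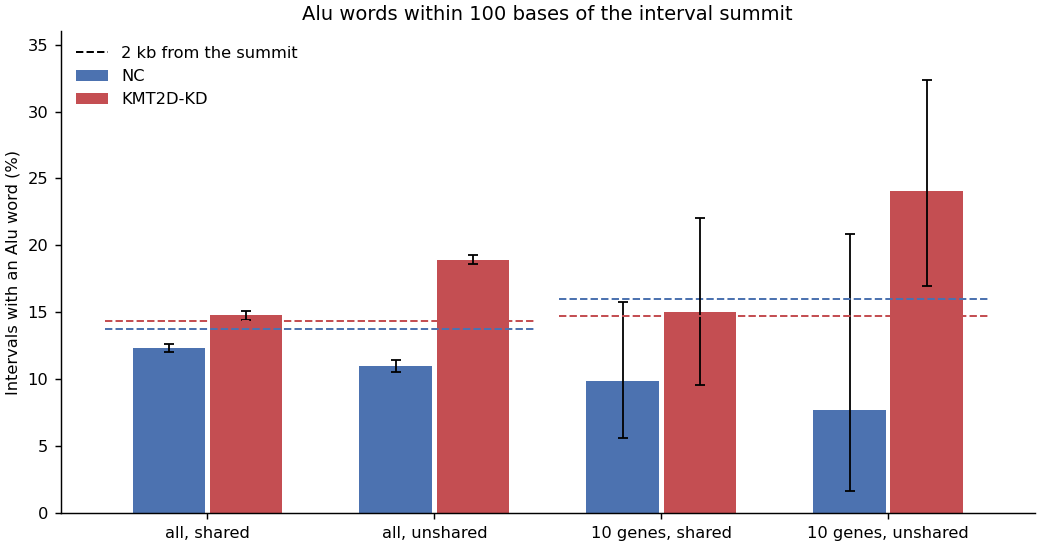
Share of H3K4me1 intervals, in percent, with a word of the Alu repeat within 100 bases of the summit, for intervals shared between the conditions and not shared, over the whole list and at the 10 genes. Bars are NC (blue) and KMT2D-KD (red) with exact 95% intervals, and dashed lines give the share 2 kb from the summits in the same colours. The KMT2D-KD bar of unshared intervals is the highest in both sets, 18.9% and 24%.

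The other genes of the pathway were counted in the same way. Of 57 other genes of TGF-beta and BMP signalling, 46 had more intervals in KMT2D-KD, 8 had equal numbers and 3 had fewer, and the sums were 421 in NC and 672 in KMT2D-KD. Over all protein-coding genes with at least 5 intervals, 82.7% had more, 6.95% had equal numbers and 10.3% had fewer. The 57 were not held to that number. With equal numbers of top intervals 25 had more and 16 fewer, and over the gene body alone 27 had more and 5 fewer. Among the 46 with at least 5 intervals, 31 had at least 1.5 times as many in KMT2D-KD, beside 58.3% of all genes, and 0 had as many more in NC, beside 3.49%. All 4 other SMAD genes had more in KMT2D-KD, as did 7 of 10 other receptors, 7 of 10 other ligands, 8 of 8 genes of co-repression and turnover, 8 of 9 of latency and activation, 4 of 6 extracellular inhibitors and 8 of 10 target genes. Only 2 of these 4 SMAD genes had at least 5 intervals. The highest differences were at LTBP1, which binds latent TGF-beta in the matrix (36 and 57), at SMAD6, the inhibitory SMAD of BMP signalling (15 and 31), and at LTBP2 (19 and 35). LTBP1 has a window of 553 kb, and its ratio of 1.58 was near the median of 1.57 over genes with at least 5 intervals. The lowest were at TGFB3, the third TGF-beta ligand (2 and 0), NRROS, which tethers latent TGF-beta (5 and 4), and the target gene SNAI2 (7 and 6). The receptor genes ACVR1C and ACVR2A had no interval in either list.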

How the data were processed

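Per the study's methods, reads were cleaned before alignment with bwa. The submitters' processing notes name BWA, MACS2, HOMER and hg38 without roles or versions, and caller settings, duplicates and multiply mapped reads were not given in the sources used here. Each deposited list has 10 columns: coordinates, a score (10 times −log10 q, cut to a whole number), a fold enrichment over input (a ratio), and the −log10 of p and of the q-value, as the authors' caller wrote them. These values were described, ranked and filtered, and the fold and p-value were also used as follows. No interval ran past an hg38 chromosome end, and coordinates count from 1.

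Fragments at each summit were recovered by solving fold = (fragments + 1)/(background + 1) with the Poisson p-value, which gave whole numbers within 0.001 of the deposited −log10 p for 64839 of 64843 intervals in NC and 92128 of 92135 in KMT2D-KD. The step was tested on simulated intervals.

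An interval counted for a gene if it overlapped the window by at least 1 base, and covered length was cut at the window. Lists shared an interval with at least 1 base of overlap. Ratios and shares have exact (Clopper-Pearson) 95% intervals, with no adjustment over genes. The 10 genes and the gene lists were chosen with earlier results of these data known. All 10 genes are described. Of the other pathway genes, the 3 highest and the 3 lowest differences are named, and within a window the intervals with the highest −log10 q-value, overall and without overlap in the other list. Other intervals, among them the widest, and genes with no interval in either list were named after their values were seen. Alternatives changed the window, thresholds, overlap, merging (gaps up to 1000 bases) and the genes included. Python 3.11.15, pandas 2.3.3, scipy 1.17.1, pysam 0.24.0 and samtools 1.23.1 were used. Stretches in untranslated regions and some other summit sequences are not reported here, and the input library was not used beyond the deposited values.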

Additional observations from a re-analysis of the deposited data

How the results depend on the processing

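The log2 ratio of summed numbers, 0.49, ran from 0.41 to 0.61 when 1 gene at a time was left out, and that of covered length, 0.69, from 0.62 to 0.84; both stayed above 0 under every alternative run. Thresholds were set on both lists before the overlap was taken, so an interval could lose a partner that fell below them. With a −log10 q-value of at least 5 the number ratio was 1.07 and the KMT2D-KD unshared share 62.9%. With a fold of at least 5 the ratios were 1.26 and 1.37 and the unshared shares 14.6% in NC and 65.3% in KMT2D-KD. With equal numbers of top intervals the number ratio was 0.074, the shares were 30.4% and 40.8%, 4 of the 10 genes and 25 of the 57 other pathway genes had more in KMT2D-KD, and 16 of the 57 fewer; this setting takes the same number from both lists by construction. An overlap of at least 50% gave shares of 33.5% and 65.1%, and a distance within 1000 bases 8.90% and 27.1%. Without intervals that had an Alu word at the summit, an alternative chosen after seeing the data, the NC share was 27.7% and 6 genes had more in KMT2D-KD, with 2 fewer. The cause of the other shifts was not tested. Gene body alone, 10 or 100 kb flanks, merging, summit position and nearest gene moved none of these values for the 10 genes past the counting interval or a factor of 1.5, and 84 of 99 alternative values stayed within them. Of single genes, TGFBR2 fell to −0.85 with equal numbers and TGFBR1 kept 2 NC intervals and 1 of KMT2D-KD with a fold of at least 5. SMAD2, SMAD3, SMAD7 and SKIL stayed above 0 throughout. Motif shares over whole intervals were higher in 13 of 16 cases beyond the counting interval, as whole intervals are longer. No alternative was counted over all protein-coding genes, and no paired analysis was possible because each condition had 1 library.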
